A study of Mus musculus with 12 samples.

Results

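The interleukin 1 family and its receptors were followed here in cells washed from the mouse peritoneal cavity. The 10 genes were chosen by symbol: the cytokines Il1a, Il1b, Il18 and Il33, the receptor antagonist Il1rn, the binding protein Il18bp, the receptor chains Il1r1, Il1rap and Il1rl1, and the decoy receptor Il1r2. All 10 had a row among the 21851 genes of every library. The mice were of the C57BL/6J strain and had received PBS or the bacterial lipopolysaccharide LPS by intraperitoneal injection. The series asks how lactoferrin deficiency changes expression in acute LPS inflammation. Its 4 groups, with 3 libraries each, were lactoferrin knockout mice given LPS, wild-type mice given LPS, lactoferrin knockout mice given PBS and wild-type mice given PBS. Knockout libraries carry a title that names wild-type mice, but the codes, descriptions and characteristics say lactoferrin knockout and were followed. The sources used here do not give the knockout allele, sex, age, dose or time from injection to lavage. Whether each library came from its own mouse is not labelled, so the p-values reflect variation among libraries, which may be technical.

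IL-1α and IL-1β are alarm cytokines that bind the same receptor, formed by Il1r1 and the accessory chain Il1rap, and signal through Myd88 to NF-kB. The pathway is braked at several points: Il1rn blocks the receptor, Il1r2 binds the cytokines without signalling, and Il18bp holds IL-18 in solution. IL-33 signals through Il1rl1, also called ST2, which mast cells carry, again with Il1rap as the partner chain. In the peritoneal cavity macrophages and neutrophils are the known sources of IL-1, and IL-1β and IL-18 are made as precursors that must be cut to become active.

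The files hold a value per gene that was read as FPKM, fragments scaled by transcript length and library size, which can be set side by side between genes. Library totals ran from 343874 to 388129 FPKM, and relative depth, set to wild-type PBS replicate 1, was 0.917 to 0.992 in the others. Wild-type PBS replicate 3 stood apart, with Spearman correlations of 0.934 and 0.949 to the rest of its group, against at least 0.973 for every other pair within a group. Values without that library are given wherever they change a call. Ltf, the gene disrupted in the knockout, was at 0.117, 0.0832 and 0.0699 FPKM in the knockout under LPS, against 0.176, 1.33 and 0.275 FPKM in wild type under LPS. Under PBS, Ltf was at 0.183, 0.258 and 0.212 FPKM in the knockout, against 1.89, 1.23 and 1.16 FPKM in wild type. Each knockout library lay below each wild-type library of the same treatment (difference -0.73 in log2(FPKM + 1), two-sided exact permutation within treatment, p = 0.005, the smallest that 400 relabellings can give).

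Il1a and Il1b are neighbours on the minus strand of mouse chromosome 2, with gene starts 61.2 kb apart in GRCm38 (Il1a at 129299610 to 129309972, Il1b at 129364570 to 129371139). Il1rn lies far from them on the same chromosome, on the plus strand at 24336853 to 24351494. Il1r2, Il1r1 and Il1rl1 sit in this order on the plus strand of chromosome 1, followed by Il18r1 and Il18rap, in a cluster of 478 kb that starts at 40074079. Il1rap is on chromosome 16, Il33 on chromosome 19, Il18bp on chromosome 7 and Il18 on chromosome 9. The 250 bases upstream of the start site are shown for the 3 most abundant members, since Il1a and Il1b are neighbours whose levels moved differently. They are RefSeq sequences of GRCm38.p6, from chr2:129309973-129310222 on the minus strand for Il1a, chr2:129371140-129371389 on the minus strand for Il1b and chr2:24336610-24336859 on the plus strand for the upstream start of Il1rn. Capitals mark matches to the TATA box TATAAA and to the AP-1 motif TGANTCA, on either strand.
Il1a: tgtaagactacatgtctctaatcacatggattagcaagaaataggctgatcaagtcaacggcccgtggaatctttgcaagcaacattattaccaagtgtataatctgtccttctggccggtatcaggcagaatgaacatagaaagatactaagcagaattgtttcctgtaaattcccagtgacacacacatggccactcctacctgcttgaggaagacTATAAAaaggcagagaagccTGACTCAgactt
Il1b: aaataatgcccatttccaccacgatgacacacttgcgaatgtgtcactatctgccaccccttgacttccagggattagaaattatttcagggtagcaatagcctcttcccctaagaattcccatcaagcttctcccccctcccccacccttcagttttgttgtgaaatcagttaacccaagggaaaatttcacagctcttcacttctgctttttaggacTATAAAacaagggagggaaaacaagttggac
Il1rn: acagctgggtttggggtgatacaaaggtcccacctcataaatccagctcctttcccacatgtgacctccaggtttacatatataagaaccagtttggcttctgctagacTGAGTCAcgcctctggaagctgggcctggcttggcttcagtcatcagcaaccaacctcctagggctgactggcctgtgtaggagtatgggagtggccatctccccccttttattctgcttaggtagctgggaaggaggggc
Il1a and Il1b each held a TATA box close to the start, at -32 and -31 from the start site. Il1a also held an AP-1 match at -12, and Il1rn held one at -141. Over the 300 bases around each start that the table holds, 13.6% of 32851 promoters matched the TATA box and 7.81% matched AP-1. The other motifs searched were the NF-kB consensus (4.51% of promoters), the C/EBP motif TTGCNNAA (10.8%) and the core of the interferon-stimulated response element (3.44%). Those 3 had no match in the promoters of Il1a, Il1b or Il1rn. A match describes letters and shows no binding.

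With LPS, Il1a, Il1rn and Il18bp rose and Il1rap fell in both genotypes, while Il1b rose in the knockout and fell in wild type. The share of members called was near that of all genes in the knockout, and the calls of Il1b and Il1rn in wild type and of Il1rap in the knockout depended on single libraries or settings, as given for each gene. Of the 10 members, 8 reached a mean of 1 FPKM and entered the fit, limma on log2(FPKM + 1) over 9841 genes with Benjamini-Hochberg adjustment and a threshold of 0.05. In the knockout, LPS changed 5 of these 8, 4 higher and 1 lower, where 53.2% of all tested genes changed (19.9% higher, 33.3% lower). With median-of-ratios scaling, and in 7 of the 12 fits without 1 library, it was 4 of 8, without Il1rap. In wild type, LPS changed 7 of 8, 4 higher and 3 lower, where 62.2% of all tested genes changed (24.8% higher, 37.4% lower). The median member changed by 0.68 in the knockout and by 0.56 in wild type on the log2 scale, where the medians of all genes were -0.125 and -0.111. Scaling by median of ratios would move those medians of all genes to 0.0404 and 0.0476, so small changes are to be read against that shift. Between knockout and wild type limma called 0 of the 8 under LPS, where it called 0% of all genes, and 0 of the 8 under PBS, where it called 0.112% (0.0203% higher, 0.0915% lower). At an unadjusted p under 0.05 there were 3 of the 8 under LPS (Il1b, Il1rn and Il1r2) and 1 of the 8 under PBS (Il1b), against 744 and 897 of all 9841 genes. The difference of the LPS responses was called for 0 of the 8, and for 3 of the 8 (Il1b, Il1rn and Il1r2) at an unadjusted p under 0.05, against 946 of all genes. Without wild-type PBS replicate 3, LPS changed 5 of the 8 in wild type (Il1a, Il1b, Il1r2, Il1rap and Il18bp), in a fit that called 5784 genes. The responses then differed for 3 of the 8 (Il1b, Il1rn and Il1r2), and for 49 genes in all. Groups without overlap between LPS and PBS were found for 4 of the 8 in the knockout and 6 of the 8 in wild type, against 66% and 66.2% of all tested genes.

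**Figure D1:**
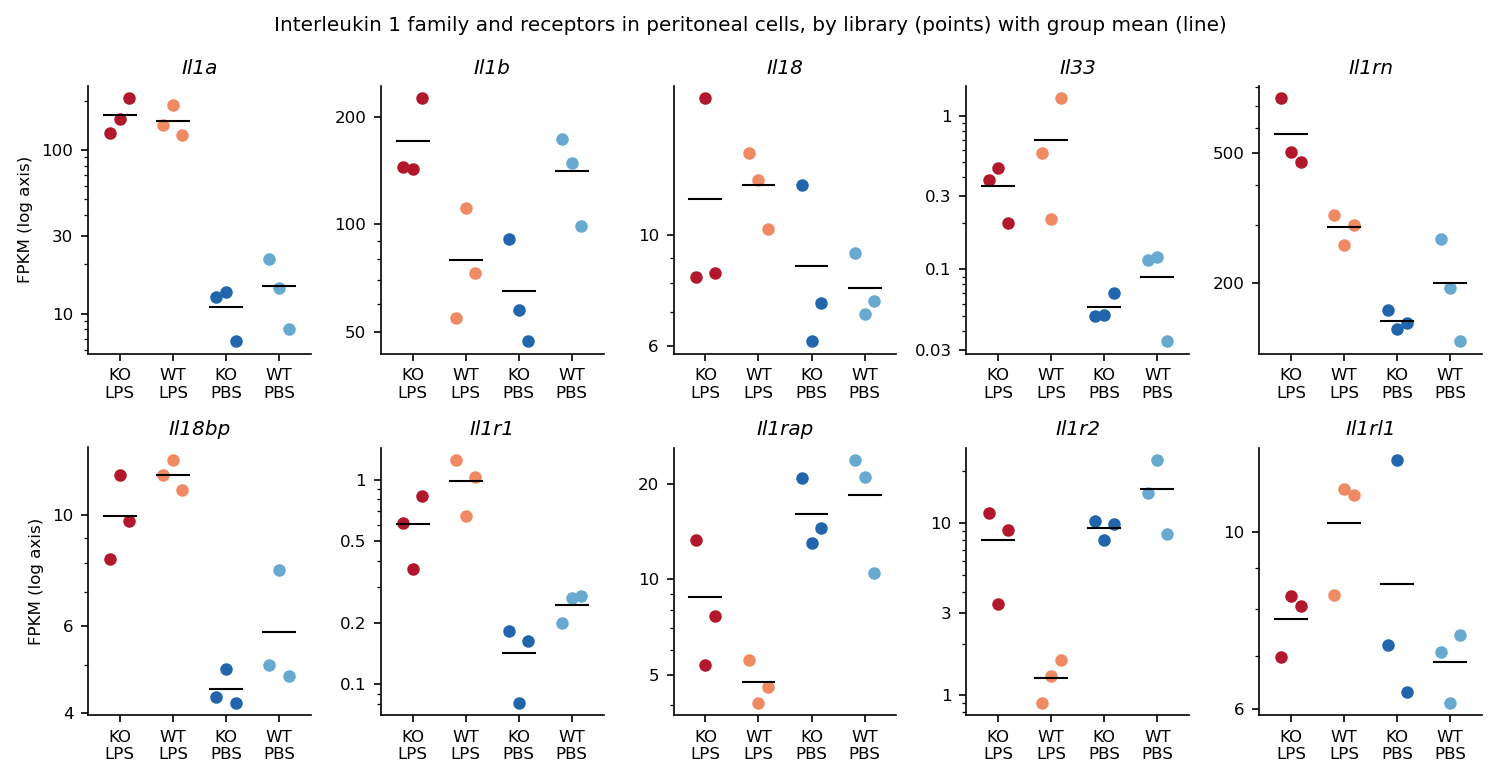
Level of each of the 10 genes in FPKM on a log axis, with 1 point per library and a line at the mean of each group of 3 (KO, lactoferrin knockout; WT, wild type). Il1a separates LPS from PBS libraries, Il1b is high in the knockout under LPS and in wild type under PBS, and Il1r2 is low in wild type under LPS.

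Il1a, the membrane-bound and nuclear member of the IL-1 pair, had the largest rise of the 8 tested members in both genotypes. Under LPS it reached 126, 154 and 207 FPKM in the knockout, against 12.6, 13.6 and 6.77 FPKM under PBS. In wild type it was at 142, 187 and 123 FPKM under LPS, against 21.7, 14.3 and 8.06 FPKM under PBS. No LPS library came near a PBS library, and the means differed 14.8-fold in the knockout and 10.3-fold in wild type. The log2 changes were 3.80 ± 0.33 in the knockout (SE, adjusted p = 7.8e-06) and 3.35 ± 0.33 in wild type (adjusted p = 1.3e-05). The 2 genotypes overlapped under either treatment, and the knockout's LPS response exceeded the wild-type one by 0.45, with a 95% interval of -0.59 to 1.48. Without wild-type PBS replicate 3, the lowest of its group, the wild-type change was 3.0 ± 0.30.

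Il1b, the secreted member of the pair, behaved unlike its neighbour. In the knockout it was at 145, 143 and 226 FPKM under LPS, against 91.2, 57.6 and 47.0 FPKM under PBS. In wild type it was at 54.7, 111 and 73.2 FPKM under LPS, against 174, 149 and 99.3 FPKM under PBS. In the knockout every LPS library was above every PBS library, whereas in wild type LPS replicate 2 was above PBS replicate 3. Il1b rose by 1.40 ± 0.32 with LPS in the knockout (adjusted p = 0.00326) and fell by 0.84 ± 0.32 with LPS in wild type (adjusted p = 0.0369). The fall did not pass the threshold without any one of wild-type PBS replicate 1 (adjusted p = 0.122), wild-type PBS replicate 2 (0.0858), wild-type LPS replicate 1 (0.145) or wild-type LPS replicate 3 (0.0874). It also missed the threshold with median-of-ratios scaling (log2 change -0.65, adjusted p = 0.0898), with no level filter (0.0648) and with the replicate number as a block (0.0552).

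The genotypes therefore stood in opposite order for Il1b under the 2 treatments. Under LPS, Il1b averaged 172 ± 47.4 FPKM in the knockout and 79.5 ± 28.5 FPKM in wild type (SD, n = 3 each). Under PBS it averaged 65.3 ± 23.1 FPKM in the knockout and 141 ± 38.1 FPKM in wild type (SD, n = 3 each). In neither treatment did the genotypes overlap, as was so for 15.4% of all tested genes under LPS and for 13.4% under PBS. The differences of 1.12 ± 0.32 under LPS (adjusted p = 0.455) and -1.12 ± 0.32 under PBS (adjusted p = 0.329) did not pass the threshold over all genes. The difference between the LPS responses was 2.24, with a 95% interval of 1.26 to 3.22 and adjusted p = 0.124, in a contrast where 0.0406% of all genes passed. Without wild-type PBS replicate 3 that difference was 2.47 ± 0.44 with adjusted p = 0.0367, and 49 genes passed in that fit. It passed in no other fit without 1 library, where adjusted p reached 0.379.

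Il18 and Il33 were lower and moved less in FPKM than Il1a and Il1b. The low means of Il33 still differed 6.12-fold between LPS and PBS in the knockout and 7.72-fold in wild type. Il18, an inducer of interferon gamma, was at 8.22, 18.8 and 8.38 FPKM in the knockout under LPS, against 12.6, 6.12 and 7.29 FPKM under PBS. In wild type Il18 was at 14.6, 12.9 and 10.3 FPKM under LPS, against 9.18, 6.93 and 7.36 FPKM under PBS. The wild-type groups did not overlap and the knockout groups did. The changes of 0.36 (95% interval -0.29 to 1.02, adjusted p = 0.324) in the knockout and 0.62 (-0.03 to 1.28, adjusted p = 0.0898) in wild type did not pass. In wild type it passed without knockout LPS replicate 2 (adjusted p = 0.0283), which was the highest library for this gene, with median-of-ratios scaling (0.0362) and in a fit of the wild-type groups alone (0.0133).

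Il33, an alarmin held in the nucleus of stromal cells, was under the filter. It was at 0.382, 0.46 and 0.202 FPKM in the knockout under LPS, against 0.0495, 0.0506 and 0.0705 FPKM under PBS. In wild type Il33 was at 0.573, 0.213 and 1.3 FPKM under LPS, against 0.116, 0.12 and 0.0341 FPKM under PBS. Every LPS library was above every PBS library of its genotype (difference 0.47 in log2(FPKM + 1), two-sided exact permutation within genotype, p = 0.005, the smallest possible). LPS and PBS libraries also did not overlap for 66% of all tested genes in the knockout and 66.2% in wild type. The knockout and wild type overlapped under both treatments (difference -0.16, exact permutation p = 0.295). Without wild-type LPS replicate 2, the lowest wild-type LPS library for Il33, that difference was -0.27 with an exact permutation p = 0.02. Msln, a mesothelial marker, was at 0.862, 0.055 and 1.22 FPKM in the wild-type LPS libraries, so the pair with the most Il33 also had the most Msln. In wild type under PBS, Msln was at 0.0336, 0.332 and 0.0531 FPKM. In the knockout Msln was at 0.0713, 0.0832 and 0.0338 FPKM under LPS, against 0.0689, 0.0351 and 0.0373 FPKM under PBS. The knockout treatments thus overlapped for Msln and not for Il33. The 7 mesothelial and stromal markers summed to 1.54 to 1.93 FPKM in the knockout and 3.56 to 11.5 FPKM in wild type under LPS, against 2.73 to 5.03 FPKM in the knockout and 3.09 to 5.27 FPKM in wild type under PBS. None of the 7 was at 0 in a whole group, and their part in the Il33 levels was not tested.

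Among the brakes, Il1rn was the most abundant member in all 4 groups, above 98.5% to 99.6% of all genes by mean level. In the knockout the antagonist was at 739, 506 and 470 FPKM under LPS, against 165, 144 and 150 FPKM under PBS. In wild type it was at 324, 262 and 301 FPKM under LPS, against 272, 193 and 132 FPKM under PBS. The knockout groups lay far apart, while wild-type LPS replicate 2 was below wild-type PBS replicate 1. Il1rn rose by 1.87 ± 0.24 in the knockout (adjusted p = 9.28e-05) and by 0.62 ± 0.24 in wild type (adjusted p = 0.0403). The wild-type call was lost when any 1 of 8 of the 12 libraries was left out (log2 change 0.36 to 0.71, adjusted p 0.0513 to 0.153). These were wild-type PBS replicates 2 and 3 and all replicates of the wild-type LPS and knockout PBS groups, and the lowest value, 0.36 with adjusted p = 0.153, came without wild-type PBS replicate 3. It was also lost with no level filter (adjusted p = 0.0655) and in a fit of the wild-type groups alone (0.0794).

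Under LPS, Il1rn averaged 572 ± 146 FPKM in the knockout and 296 ± 31.5 FPKM in wild type (SD, n = 3 each), without overlap. That difference was 0.92 ± 0.24 on the log2 scale and did not pass over all genes (adjusted p = 0.349). Under PBS the antagonist averaged 153 ± 10.5 FPKM in the knockout and 199 ± 70.3 FPKM in wild type (SD, n = 3 each), with overlap. The responses to LPS differed by 1.24 (95% interval 0.50 to 1.99, adjusted p = 0.301), or by 1.51 ± 0.28 with adjusted p = 0.0424 without wild-type PBS replicate 3. That difference passed in no other fit without 1 library, where adjusted p reached 0.612.

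Il18bp, the soluble neutraliser of IL-18, rose in both genotypes, 2.23-fold by the means in the knockout and 2.06-fold in wild type. It was at 8.16, 12.0 and 9.71 FPKM in the knockout under LPS, against 4.31, 4.9 and 4.2 FPKM under PBS. In wild type Il18bp was at 12.0, 12.9 and 11.2 FPKM under LPS, against 5.0, 7.74 and 4.76 FPKM under PBS. The LPS and PBS libraries did not overlap in either genotype. The rises were 0.99 ± 0.16 in the knockout (adjusted p = 0.000498) and 0.96 ± 0.16 in wild type (adjusted p = 0.000425), and the 2 responses differed by 0.03 with a 95% interval of -0.48 to 0.54.

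Il1r2, the decoy receptor known from neutrophils and monocytes, showed the widest gap between genotypes of the 8 tested members under LPS. In the knockout it was at 11.4, 3.42 and 9.08 FPKM under LPS, against 10.3, 7.96 and 9.9 FPKM under PBS. In wild type Il1r2 was at 0.906, 1.29 and 1.61 FPKM under LPS, against 15.0, 23.4 and 8.71 FPKM under PBS. All wild-type LPS libraries lay below all 9 others, and knockout LPS replicate 2 was the next lowest. Il1r2 fell by 2.79 ± 0.37 with LPS in wild type (adjusted p = 7.9e-05; -3.13 without wild-type PBS replicate 3), whereas its change in the knockout was -0.34 with a 95% interval of -1.15 to 0.48 (adjusted p = 0.467). The knockout change was 0.11 (adjusted p = 0.789) without knockout LPS replicate 2.

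Under LPS, Il1r2 averaged 7.96 ± 4.1 FPKM in the knockout and 1.27 ± 0.353 FPKM in wild type (SD, n = 3 each), 6.27-fold apart and without overlap. The difference of 1.87 ± 0.37 on the log2 scale did not pass over all genes (adjusted p = 0.192). It was 2.31 with adjusted p = 0.0176 without knockout LPS replicate 2, where 29 genes passed. It passed in no other fit without 1 library, where adjusted p reached 0.722. The responses to LPS differed by 2.46 (95% interval 1.30 to 3.61, adjusted p = 0.177). That value was 2.80 with adjusted p = 0.0317 without wild-type PBS replicate 3 and 2.90 with adjusted p = 0.0209 without knockout LPS replicate 2. The difference of responses passed in no other fit without 1 library, where adjusted p reached 0.464. Under PBS, Il1r2 averaged 9.4 ± 1.26 FPKM in the knockout and 15.7 ± 7.35 FPKM in wild type (SD, n = 3 each), with overlap.

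Neutrophil markers moved with Il1r2 across the libraries. The 8 markers (S100a8, S100a9, Cxcr2, Retnlg, Csf3r, Mmp9, Ly6g and Mmp8) summed to 2680, 714 and 1940 FPKM in the knockout under LPS, against 3070, 1220 and 1270 FPKM under PBS. In wild type they summed to 153, 247 and 280 FPKM under LPS, against 3290, 2870 and 1970 FPKM under PBS. The library with the lowest Il1r2 also had the lowest marker sum, and knockout LPS replicate 2 was the lowest of its group in both. LPS lowered 7 of the 8 in wild type (median log2 change -3.81) and 2 of the 8 in the knockout (median -0.45). Over all tested genes, LPS lowered 37.4% in wild type and 33.3% in the knockout. Under LPS 0 of the 8 passed between the genotypes, where 7 had an unadjusted p under 0.05 (median log2 difference 2.1), and the same counts held for the difference of responses (median 2.6). Over all 9841 genes, 744 had an unadjusted p under 0.05 between the genotypes under LPS and 946 for the difference of responses. Ly6g, a defining neutrophil surface marker, was listed at 0 in wild-type LPS replicates 1 and 2 and stood at 0.348 FPKM in replicate 3. In these bulk samples fewer cells of a type and less RNA per cell cannot be told apart, and the part of the neutrophil markers in the levels of Il1r2, Il1b and Il1rn was not tested.

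**Figure D2:**
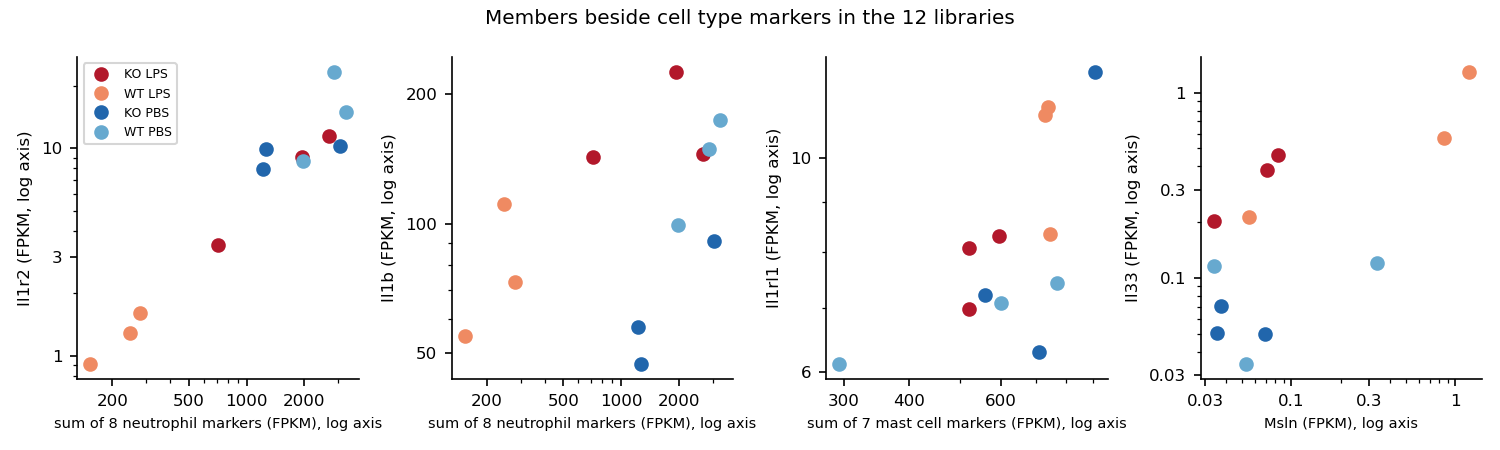
Selected members against markers of a cell type in the 12 libraries, both in FPKM on log axes: Il1r2 and Il1b against the sum of 8 neutrophil markers, Il1rl1 against the sum of 7 mast cell markers, and Il33 against the mesothelial marker Msln. The wild-type LPS libraries have the lowest neutrophil sums, 153 to 280 FPKM, and the lowest Il1r2, 0.906 to 1.61 FPKM; for Il1b the knockout PBS libraries lie as low at sums of 1220 to 3070 FPKM.

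Beside the same sums, Il1b was at 145, 143 and 226 FPKM in the knockout under LPS, against 91.2, 57.6 and 47.0 FPKM under PBS. In wild type Il1b and the neutrophil sum were both lower under LPS, and under PBS wild-type replicate 1 was the highest and replicate 3 the lowest of its group in both. The other groups did not keep the same order in both. Il1b was highest in knockout LPS replicate 3 and wild-type LPS replicate 2, but the sum in knockout LPS replicate 1 and wild-type LPS replicate 3. In the knockout Il1b was higher under LPS, while the sums of the LPS and PBS libraries overlapped. Single markers in that sum differed. Knockout Cxcr2 was at 16.1, 1.87 and 5.97 FPKM under LPS, against 69.2, 32.7 and 40.5 FPKM under PBS, without overlap. Knockout S100a8 (1240, 320 and 843 FPKM against 1290, 474 and 519 FPKM) and Ly6g (2.01, 0.808 and 0.805 FPKM against 4.35, 1.36 and 1.71 FPKM) overlapped.

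The signalling receptor Il1r1 was scarce everywhere. It was at 0.613, 0.365 and 0.832 FPKM in the knockout under LPS, against 0.183, 0.0812 and 0.162 FPKM under PBS. In wild type Il1r1 was at 1.25, 0.661 and 1.03 FPKM under LPS, against 0.2, 0.264 and 0.271 FPKM under PBS. The LPS libraries were above the PBS libraries in both genotypes (difference 0.57 in log2(FPKM + 1), two-sided exact permutation within genotype, p = 0.005, the smallest possible). Among all tested genes, 66% in the knockout and 66.2% in wild type had no overlap between LPS and PBS. Over both treatments the knockout minus wild type difference was -0.21 (exact permutation within treatment, p = 0.045), with overlap under LPS and none under PBS. That p was 0.07 to 0.125 without any one of wild-type LPS replicates 1 and 3, knockout PBS replicate 2 and knockout LPS replicates 1 and 2, so the genotype difference rests on each of those libraries. Both p-values for Il1r1 and both for Il33 are unadjusted, 4 tests in all.

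Il1rap, the chain shared by the IL-1 and IL-33 receptors, fell with LPS. In the knockout it was at 13.3, 5.38 and 7.66 FPKM under LPS, against 20.9, 13 and 14.5 FPKM under PBS. In wild type Il1rap was at 5.56, 4.07 and 4.57 FPKM under LPS, against 23.9, 21.0 and 10.5 FPKM under PBS. The wild-type groups did not overlap, while knockout LPS replicate 1 was above knockout PBS replicate 2. Il1rap fell by 1.69 ± 0.32 in wild type (adjusted p = 0.000851; -2.04 without wild-type PBS replicate 3), whereas the knockout change was -0.86 ± 0.32 (adjusted p = 0.0406). The knockout call was lost without any one of 7 libraries, at adjusted p 0.0503 to 0.165: all wild-type LPS replicates, knockout PBS replicates 1 and 3, and knockout LPS replicates 2 and 3. It was also lost with median-of-ratios scaling (log2 change -0.68, adjusted p = 0.097) and with no level filter (0.0756). The responses differed by 0.83, with a 95% interval of -0.17 to 1.83.

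Il1rl1, the IL-33 receptor, was at 6.98, 8.31 and 8.07 FPKM in the knockout under LPS, against 7.21, 12.3 and 6.3 FPKM under PBS. In wild type it was at 8.34, 11.3 and 11.1 FPKM under LPS, against 7.07, 6.11 and 7.43 FPKM under PBS. The wild-type groups did not overlap, and the highest of all libraries was knockout PBS replicate 2. Il1rl1 rose by 0.51 ± 0.20 in wild type (adjusted p = 0.0408), while the knockout change was -0.08 with a 95% interval of -0.51 to 0.35. The wild-type call was lost without any one of 6 libraries, at adjusted p 0.05 to 0.122: all wild-type PBS replicates, wild-type LPS replicates 2 and 3, and knockout LPS replicate 3. It was also lost without the 2 libraries richest in erythroid RNA (adjusted p = 0.141) and with no level filter (0.068). The 2 responses differed by -0.59 (95% interval -1.20 to 0.02, adjusted p = 0.527).

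Il1rl1 is known from mast cells, so the 7 mast cell markers are set beside it. They summed to 521, 594 and 521 FPKM in the knockout under LPS, against 560, 907 and 708 FPKM under PBS. In wild type they summed to 744, 738 and 727 FPKM under LPS, against 600, 294 and 768 FPKM under PBS. Knockout PBS replicate 2 was the highest in both the sum and Il1rl1, and wild-type PBS replicate 2 the lowest in both, but the libraries between them did not keep one order. Knockout PBS replicate 3 had the second lowest Il1rl1, 6.3 FPKM, at a sum of 708 FPKM, and wild-type PBS replicate 3 had 7.43 FPKM at the second highest sum, 768 FPKM. LPS raised 2 of the 7 in wild type and changed none in the knockout, and none of the 7 was at 0 in a whole group. Over all tested genes, LPS raised 24.8% in wild type and changed 53.2% in the knockout. The part of the mast cell markers in Il1rl1 was not tested.

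**Figure D3:**
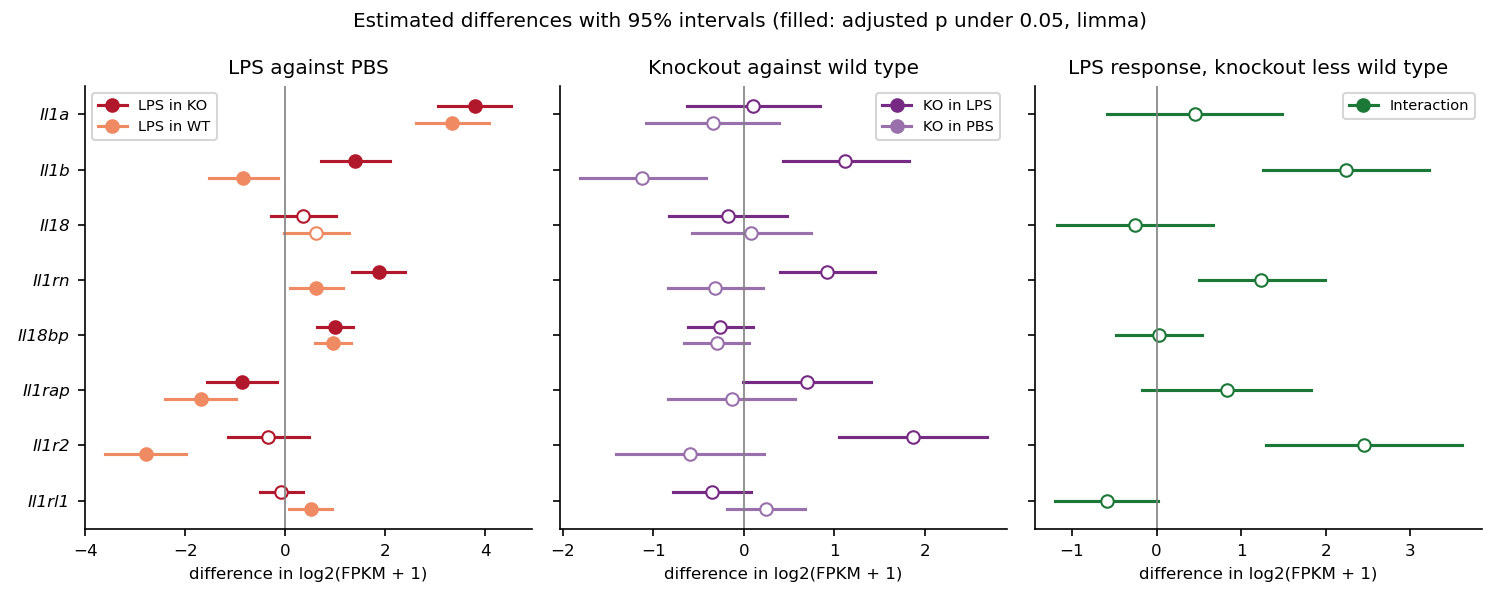
Differences in log2(FPKM + 1) with 95% intervals from limma for the 8 tested members, as LPS against PBS in each genotype (left), knockout against wild type in each treatment (middle) and the difference of the LPS responses, knockout minus wild type (right). Filled points passed an adjusted p of 0.05: 5 members in the knockout and 7 in wild type on the left and none in the other panels, although the intervals of Il1b, Il1rn and Il1r2 on the right lie above 0.

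Il1rn led the order of the members in every group. In the knockout under LPS, Il1rn was followed by Il1b and Il1a, which overlapped at 172 and 163 FPKM, and then by the other 7 members at 11.8 FPKM or less. In wild type under LPS, it was followed by Il1a at 151 FPKM and Il1b at 79.5 FPKM, which did not overlap, and Il1r2 was eighth at 1.27 FPKM. Under PBS, Il1b was second in both genotypes, at 65.3 FPKM in the knockout and 141 FPKM in wild type, and overlapped Il1rn in wild type alone. Il1rap, Il1a and Il1r2 then lay close together, at 9.4 to 16.1 FPKM in the knockout and 14.7 to 18.5 FPKM in wild type, each overlapping its neighbour. Il1r1 and Il33 were the lowest members in all 4 groups.

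The antagonist outweighed each IL-1 in every library, but the ratios shifted. These ratios per library are descriptions without a test. Il1rn stood at 5.85, 3.28 and 2.27 times Il1a in the knockout and at 2.29, 1.4 and 2.46 times Il1a in wild type under LPS. Under PBS that ratio was 13.1, 10.6 and 22.2 in the knockout and 12.6, 13.5 and 16.4 in wild type, above every LPS library. Relative to Il1b, Il1rn stood at 5.1, 3.53 and 2.08 in the knockout and at 5.92, 2.37 and 4.11 in wild type under LPS. Under PBS, Il1rn stood at 1.81, 2.51 and 3.2 times Il1b in the knockout and at 1.56, 1.29 and 1.33 times in wild type, so the 3 wild-type PBS libraries were the lowest of the 12.

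The balance of the 2 IL-1 genes turned with LPS. The ratio of Il1a to Il1b was 0.872, 1.08 and 0.916 in the knockout and 2.59, 1.69 and 1.67 in wild type under LPS. Under PBS the same ratio was 0.138, 0.236 and 0.144 in the knockout and 0.124, 0.0956 and 0.0811 in wild type. Il1a exceeded Il1b in all 3 wild-type LPS libraries and in 1 of the 3 knockout LPS libraries, and in none under PBS. Decoy to signalling receptor, Il1r2 to Il1r1, stood at 18.6, 9.35 and 10.9 in the knockout and at 0.725, 1.95 and 1.57 in wild type under LPS. Under PBS that ratio was 56.3, 98 and 61 in the knockout and 75.1, 88.5 and 32.1 in wild type, and the ratio rests on a low denominator, since Il1r1 did not exceed 0.271 FPKM under PBS or 1.25 FPKM under LPS. The ratio of Il18bp to Il18 was 0.639 to 1.16 in the knockout and 0.824 to 1.09 in wild type under LPS, against 0.342 to 0.801 in the knockout and 0.545 to 1.12 in wild type under PBS, and these ranges overlapped.

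**Figure D4:**
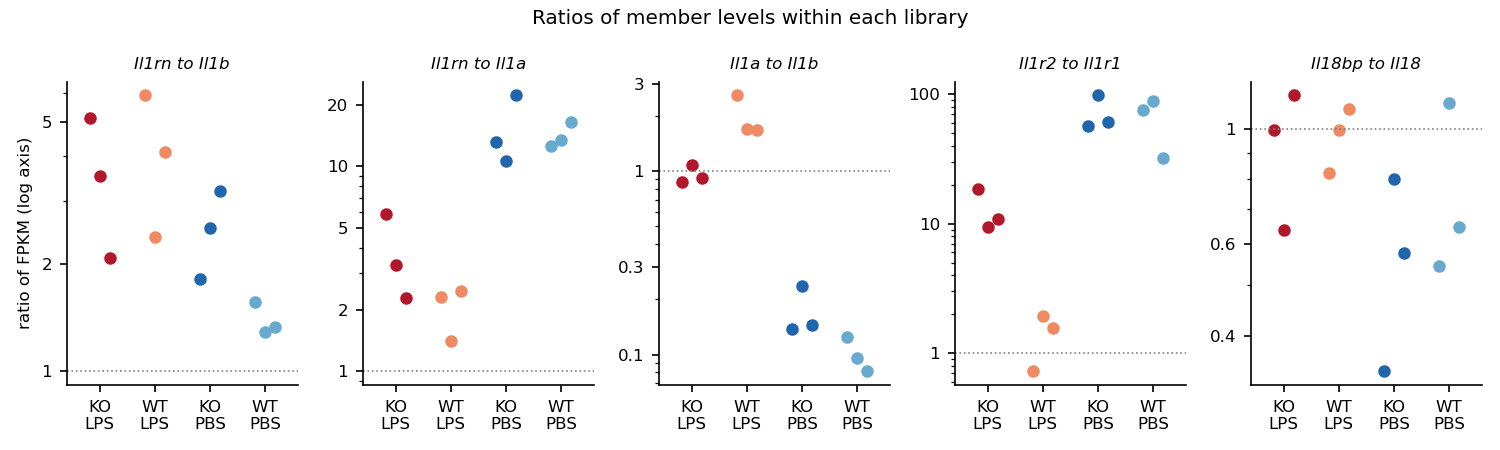
Ratio of FPKM of paired members within each library on a log axis, with 1 point per library and a dotted line at 1 (KO, lactoferrin knockout; WT, wild type). Il1rn exceeds Il1a and Il1b in every library, Il1a to Il1b passes 1 in the 3 wild-type LPS libraries and 1 knockout LPS library, and Il1r2 to Il1r1 falls to 0.725 to 1.95 in wild type under LPS.

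Among the other IL-1 family genes, the list held 11 ligands and receptors, of which 4 reached the filter. LPS lowered all 4 tested in wild type and 1 of 4 in the knockout, where it lowered 37.4% and 33.3% of all tested genes. Il1f9, which encodes IL-36γ, averaged 49.7 ± 22.2 FPKM in the knockout and 7.88 ± 1.47 FPKM in wild type under LPS, against 38.6 ± 19.1 FPKM in the knockout and 54.5 ± 26.2 FPKM in wild type under PBS (SD, n = 3 each). It fell by 2.52 ± 0.45 with LPS in wild type (adjusted p = 0.000526). Il18rap, the accessory chain of the IL-18 receptor, fell by 1.52 ± 0.36 in wild type (adjusted p = 0.00354), and Il18r1, the binding chain, fell by 0.55 ± 0.16 (adjusted p = 0.0116). Sigirr, an inhibitory receptor of the family, fell by 0.88 ± 0.18 in the knockout (adjusted p = 0.00177) and by 1.14 ± 0.18 in wild type (adjusted p = 0.000236). Il1f5, Il1f8, Il1f10 and Il1rapl2 were listed at 0 in every library.

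Of the 16 genes that carry the signal from the receptors, all tested, LPS raised 4 and lowered 4 in the knockout, and raised 5 and lowered 3 in wild type. Over all tested genes, LPS raised 19.9% and lowered 33.3% in the knockout, and raised 24.8% and lowered 37.4% in wild type. The counts for this list therefore do not set it apart from all genes. Tifa, an adaptor that activates Traf6, rose by 2.17 ± 0.21 in the knockout (adjusted p = 1.4e-05) and by 1.76 ± 0.21 in wild type (adjusted p = 3.77e-05). Irak3, the brake among the receptor kinases, rose by 0.71 ± 0.27 in the knockout (adjusted p = 0.0472) and by 1.07 ± 0.27 in wild type (adjusted p = 0.00536). Irak4, the first kinase of the complex, fell by 0.70 ± 0.09 in the knockout (adjusted p = 0.00013) and by 0.87 ± 0.09 in wild type (adjusted p = 2.13e-05). Irak2 rose by 0.70 ± 0.14 in the knockout (adjusted p = 0.00184), and Peli1, a ubiquitin ligase of the pathway, rose by 0.74 ± 0.15 in wild type (adjusted p = 0.00133). In wild type Irak2 averaged 30.4 ± 1.5 FPKM under LPS and 31.0 ± 7.17 FPKM under PBS (SD, n = 3 each). In the knockout Peli1 averaged 27.1 ± 0.364 FPKM under LPS and 27.8 ± 1.78 FPKM under PBS (SD, n = 3 each).

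Processing and release of IL-1 were covered by 17 genes, 14 of them tested, of which LPS raised 3 and lowered 6 in the knockout and raised 2 and lowered 6 in wild type. Over all tested genes, LPS changed 53.2% in the knockout and 62.2% in wild type, so the share changed in this list was near that of all genes. Capn2, a calpain of the family that cuts pro-IL-1α, fell by 2.86 ± 0.10 in the knockout (adjusted p = 4.66e-08) and by 2.44 ± 0.10 in wild type (adjusted p = 9.22e-08). Capn1, its relative, fell by 1.51 ± 0.11 in wild type (adjusted p = 1.85e-06). In the knockout Capn1 was also lower under LPS, at 7.92 ± 0.207 FPKM against 20.1 ± 2.44 FPKM under PBS (SD, n = 3 each), without overlap. Nlrp3, the inflammasome sensor, rose by 1.57 ± 0.30 in the knockout (adjusted p = 0.00112), to 71.1 ± 19.2 FPKM under LPS against 22.9 ± 3.79 FPKM under PBS. In wild type Nlrp3 averaged 58.9 ± 5.51 FPKM under LPS and 33.7 ± 16.4 FPKM under PBS (SD, n = 3 each). The neutrophil serine protease gene Prtn3 fell by 2.14 ± 0.51 in the knockout (adjusted p = 0.00431) and by 2.23 ± 0.51 in wild type (adjusted p = 0.00266), and Ctsc, which activates such proteases, fell by 1.40 ± 0.15 in the knockout (adjusted p = 3.13e-05) and by 1.5 ± 0.15 in wild type (adjusted p = 1.51e-05).

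Genes that IL-1 induces in many cells, which LPS also induces directly, numbered 14 with 12 tested. LPS raised 12 of 12 in the knockout and 11 of 12 in wild type, with median log2 changes of 2.48 and 2.22. Over all tested genes, LPS raised 19.9% in the knockout and 24.8% in wild type. Csf3, the granulocyte growth factor, rose by 5.22 ± 0.22 in the knockout (adjusted p = 1.01e-07) and by 4.78 ± 0.22 in wild type (adjusted p = 1.71e-07). Cxcl1, a neutrophil chemokine, rose by 4.20 ± 0.46 in the knockout (adjusted p = 3.07e-05) and by 3.91 ± 0.46 in wild type (adjusted p = 3.57e-05). Ifng, a target of IL-18 in lymphocytes and the only tested gene of 7 in the list of IL-18 and IL-33 response genes, rose by 2.23 ± 0.35 in the knockout (adjusted p = 0.000335) and by 2.54 ± 0.35 in wild type (adjusted p = 9.63e-05). Of the 47 tested genes of these 5 lists, limma called 0 between the genotypes or in the difference of responses. Over all genes it called 0% under LPS, 0.112% under PBS and 0.0406% in the difference of responses. At an unadjusted p under 0.05 there were 6 of the 47 under LPS, 10 under PBS and 9 in the difference of responses. The numbers over all 9841 genes were 744, 897 and 946.

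The genes whose pattern over the 12 libraries was most like that of a member were found among 6489 candidates, by the mean absolute difference of log2(FPKM + 1) after centring. For Il1a they were the chemokine genes Cxcl1 and Ccl3 (0.27 each) and Slamf1 (0.28). Il1b was closest to Cish, a cytokine-induced inhibitor of STAT signalling (0.21), with Sh2b2 and Tarm1 next at 0.35. Il1rn lay nearest to Cebpd, a C/EBP transcription factor, and Magohb (0.26 each) and Oas3 (0.27). Il1r2 was closest to Mxd1 (0.27), Antxr2 (0.28) and Smox (0.29). For Il1rap the closest was Il18rap (0.13), the accessory chain of the IL-18 receptor, before Il13ra1 (0.18) and Sema4d (0.19). Il18bp was closest to Tgif1 and Lsm2 (0.12 each) and D16Ertd472e (0.13). Il1a and Il1b, though neighbours on the chromosome, differed by 1.65 on this measure, more than Il1b and Il1rn at 0.60. Il1a, with the widest spread (SD 1.91), lay far from every other tested member, from 1.16 for Il1rn to 2.57 for Il1r2. The distance to Il1b is thus not particular to the neighbours.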

How the data were processed

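Total RNA of peritoneal lavage cells was sequenced in 12 libraries, 4 groups of 3, with a Solexa protocol, per the labels' protocols. The authors deposited 1 table of gene symbols and values per library. The unit is not stated in the sources used here; the deposited values were read as FPKM because they are not whole, sum to similar totals and because Cufflinks is named. The submitters' processing notes name TopHat, Cufflinks, HTSeq, DESeq and GRCm38, without version or role. Annotation, filters and strand use are not stated there, so reads of overlapping, antisense or near-identical genes may be shared. Of 21878 rows, 27 had symbols turned into dates and were left out. FPKM carries no read number, so depth could be estimated only relative to wild-type PBS replicate 1, from ratios of low values. At most 17.9% of such pairs lay within 2% of the commonest ratio, and whole reads were not recovered.

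The 9841 of 21851 genes that averaged 1 FPKM or more were fitted with limma 3.58.1 (statmod 1.5.0, R 4.3.3; trend and robust) on log2(FPKM + 1) with 4 group means and 8 residual degrees of freedom. This scale understates changes of low genes. P-values are two-sided and were adjusted by the Benjamini-Hochberg method over all tested genes within a contrast, with a threshold of 0.05. Il1r1 and Il33, under the filter, were tested by exact permutation of labels within strata (400 relabellings). The fit was tested on simulated data. The members, gene lists and marker lists were chosen with earlier results of these data known. All members are named; from each pathway list, up to 4 called genes of largest change per contrast could be named, and the 3 genes most like a member in pattern. Nlrp3 and Irak2 in wild type and Capn1 and Peli1 in the knockout are given as values beside the change in the other genotype. Positions come from GENCODE for GRCm38 and promoters from RefSeq (GRCm38.p6), which held 15 for the 10 members. Alternatives were another pseudocount, level filters, scalings, samples in the fit, variance model, a replicate block, and leaving out libraries.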

Additional observations from a re-analysis of the deposited data

How the results depend on the processing

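Il1a, Il18bp and, in the knockout, Il1b and Il1rn kept their LPS calls under all 9 other settings and without each of the 12 libraries in turn, as did Il1r2 and Il1rap in wild type. Without 1 library, the members changed by LPS numbered 4 to 5 in the knockout and 4 to 8 in wild type, those differing between genotypes 0 to 1 under LPS and 0 under PBS, and those with different responses 0 to 3. Of the values for single members, 774 kept direction and side of the threshold, 34 lost the call, 8 gained it and 16 changed sign, none of them called. The changes of sign were Il1rl1 with LPS in the knockout (0.09 with median-of-ratios scaling) and Il18 in the knockout against wild type under LPS (0.04 without the 2 libraries richest in erythroid RNA). Without 1 library, values with a change of sign ran from -0.63 to 0.11 for Il1r2 and from -0.26 to 0.18 for Il1rl1 with LPS in the knockout. Between genotypes under LPS they ran from -0.09 to 0.27 for Il1a and from -0.54 to 0.01 for Il18, and under PBS from -0.48 to 0.08 for Il1rap, from -0.02 to 0.41 for Il1rl1 and from -0.19 to 0.28 for Il18. The difference of responses ran from -0.62 to 0.02 for Il18 and from -0.16 to 0.15 for Il18bp. The cause of these shifts was not tested.

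Same-numbered libraries had correlations of their deviations from -0.254 to 0.193 in 18 pairs, 5 of them over 0.1. Whether the numbers pair the samples is not labelled, and with 3 libraries per group these correlations cannot decide it. With the replicate block, 5 members were called with LPS in the knockout and 6 in wild type, where Il1b missed the threshold, and 0 in the other contrasts. With no filter and no block, limma called Il1r1 with LPS in both genotypes and Il33 with LPS in wild type alone. In a limma fit with no filter and the block, Il33 changed by 0.35 with LPS in the knockout (adjusted p = 0.219). In that fit Il1r1 changed by -0.30 (adjusted p = 0.709) and -0.12 (adjusted p = 0.747) in the knockout against wild type under LPS and PBS. Without 1 library the genotype difference of Il1r1 ran from -0.27 to -0.16, and that of Il33 from -0.27 to -0.04. With 0.1 FPKM added in place of 1, the mean log2 ratio of Il1r2 to Il1r1 was 3.41 in the knockout under LPS (2.36 with 1), 5.31 in the knockout under PBS (3.18) and 5.41 in wild type under PBS (3.65). Values under 1 FPKM rest on few reads of unknown number.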

Other observations

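Beyond neutrophils and mast cells, other marker lists also differed between the groups. The 5 monocyte markers summed to 82.8 to 229 FPKM in the knockout and 66.5 to 73.6 FPKM in wild type under LPS, against 302 to 413 FPKM in the knockout and 276 to 708 FPKM in wild type under PBS. LPS lowered 3 of these 5 in the knockout and 5 of 5 in wild type. The 5 B cell markers summed to 138 to 239 FPKM in the knockout and 228 to 327 FPKM in wild type under LPS, against 631 to 868 FPKM in the knockout and 500 to 1070 FPKM in wild type under PBS. Of the 7 markers of large peritoneal macrophages, LPS lowered 6 and raised 1 in the knockout and lowered 3 and raised 1 in wild type. Over all tested genes, LPS lowered 33.3% and raised 19.9% in the knockout, and lowered 37.4% and raised 24.8% in wild type. Erythroid markers summed to 2220 FPKM in wild-type LPS replicate 2 and 1890 FPKM in knockout LPS replicate 1, and to 4.46 to 330 FPKM in the other 10 libraries. The 4 eosinophil markers summed to 0.231 to 0.447 FPKM in the knockout and 0.299 to 0.506 FPKM in wild type under LPS. Under PBS they summed to 1.08 to 2.27 FPKM in the knockout and 1.09 to 3.62 FPKM in wild type. Of these markers Epx, a defining eosinophil gene, was listed at 0 in all 4 groups. The part of these lists in the levels of the interleukin 1 genes was not tested.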
